A study of Homo sapiens with 3 samples.

Results

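Serpins are a superfamily of proteins that share a fold and an exposed reactive loop. Most act as suicide substrates of serine proteases: the protease cuts the loop and stays bound to the serpin, and both are then cleared. Some members inhibit no protease and serve as hormone carriers, as the chaperone of collagen or as extracellular signals. Human serpins are grouped by a clade letter, clade A holding secreted plasma proteins and clade B proteins that lack a classical signal peptide and act largely inside cells. The genes described here were chosen by gene name, as every gene on the array whose name is SERPIN followed by a clade letter from A to I and a number. The family was proposed with results of these same arrays known, so all values are a description and no test is given. The rule found 35 of the 43317 genes named on the array, measured by 44 of its 58201 probes, in 9 clades and on 12 chromosomes.

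The arrays measured total RNA of HCT116, a human colorectal cancer cell line, after transfection of small interfering RNA with Lipofectamine 3000. SMARCA4-KD1 and SMARCA4-KD2 received siRNA against SMARCA4, the ATPase of the SWI/SNF chromatin remodelling complex, and NC was the scrambled negative control. With 1 array per group, no spread between replicates could be measured, and so few arrays limit how precise any value can be. The titles name SMARCA4 while the treatment field names PRMT1, a protein arginine methyltransferase, and the knockdown number was taken from that field. The labels do not say which SMARCA4 siRNA was used for which array.

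The targeted gene was read first as a check on the labels. Values below follow the order SMARCA4-KD1, SMARCA4-KD2, NC unless the array is named. SMARCA4 had intensities of 3960, 4129 and 14026, a log2 fold change of -1.91 and -1.80 against NC. PRMT1 had intensities of 9801, 10147 and 7683, a log2 fold change of 0.27 and 0.37. SMARCA4 was thus low on both knockdown arrays and PRMT1 was not. Slide 1 held both knockdown arrays and slide 2 held NC, each slide with its own scan, so slide and group cannot be told apart in any comparison with NC. Both comparisons also share the same NC array.

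Intensity is the background-subtracted signal of a probe, and log2 values are relative to the 75th percentile of the array. A probe's error is the one that the extraction software gave for its signal. It covers the measurement of a spot and not the difference between cultures. A gene was kept when a probe of it was well above background on at least 1 array. That held for 16 of the 35 serpin genes (45.7%), against 52.2% of all genes named on the array. Each of the 16 was well above background on all 3 arrays, and the other 19 on none of them.

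**Figure D1:**
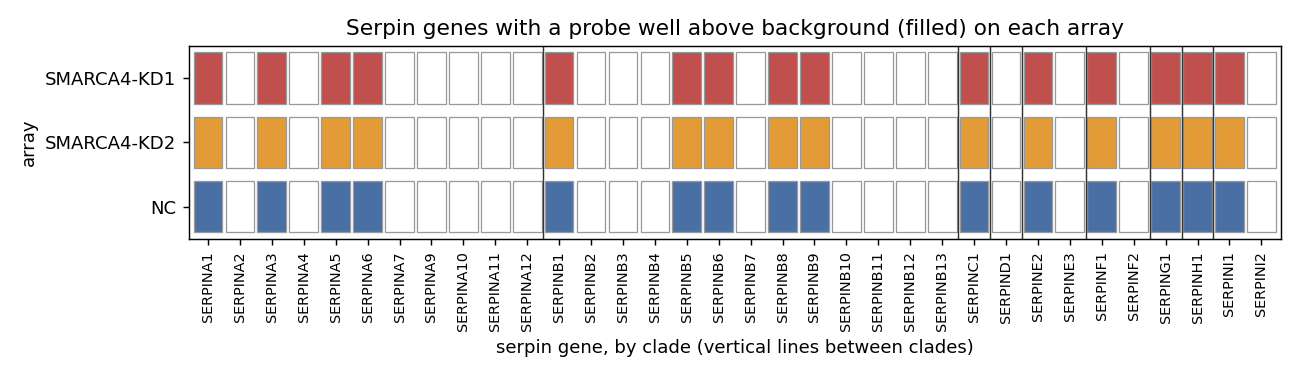
Detection of 34 of the 35 serpin genes (horizontal axis, by clade) on the 3 arrays (vertical axis). A filled cell marks a gene with at least 1 probe well above background, and the detected genes shown are the same on each array.

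The 19 serpin genes not well above background had intensities from 3.35 to 5.72 in SMARCA4-KD1, 3.29 to 12.9 in SMARCA4-KD2 and 3.51 to 11.5 in NC, taking the brightest probe of each. The lowest level well above background was 16.9, 16.2 and 17.7 on these arrays. No fold change is given for them. They were 7 of 11 clade A genes, among them SERPINA4 (kallistatin), SERPINA7 (thyroxine-binding globulin) and SERPINA12 (vaspin), and 8 of 13 clade B genes, among them SERPINB2 and the squamous cell carcinoma antigens SERPINB3 and SERPINB4. The remaining 4 were SERPIND1 (heparin cofactor), SERPINE3, SERPINF2 (the main inhibitor of plasmin) and SERPINI2.

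Among the 16 genes kept, 5 were at least 1.5-fold lower in SMARCA4-KD1 than in NC (12.3% of the 22620 genes kept on the array were), and 0 were at least 1.5-fold higher (11.2% of all genes). In SMARCA4-KD2, 5 were lower (9.77% of all genes) and 1 was higher (10.1% of all genes). Lower in both knockdowns were 4, or 25.0% of the serpin genes kept (8.05% of all genes), among them SERPINA1, SERPINA5 and SERPINB8. Higher in both were 0 (6.35% of all genes). With the normexp background correction, 1 serpin gene, SERPINA1, was lower in both and 1, SERPINH1, was higher in both, each 6.25% of the 16, beside 3.80% and 3.99% of all genes in that setting. Over the 16 serpin genes the log2 fold change had a median of -0.27 (SMARCA4-KD1) and -0.20 (SMARCA4-KD2), beside -0.00 and 0.02 over all genes kept. Below NC by any amount were 13 of the 16 genes for SMARCA4-KD1 and 11 for SMARCA4-KD2. The medians over all genes kept, close to NC, put about as many genes below NC as above it. Of the 16 serpin genes, 4 and 6 differed from NC by less than their extraction error, whose median was 0.21 in both comparisons. The share of all genes within that error was not counted.

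**Figure D2:**
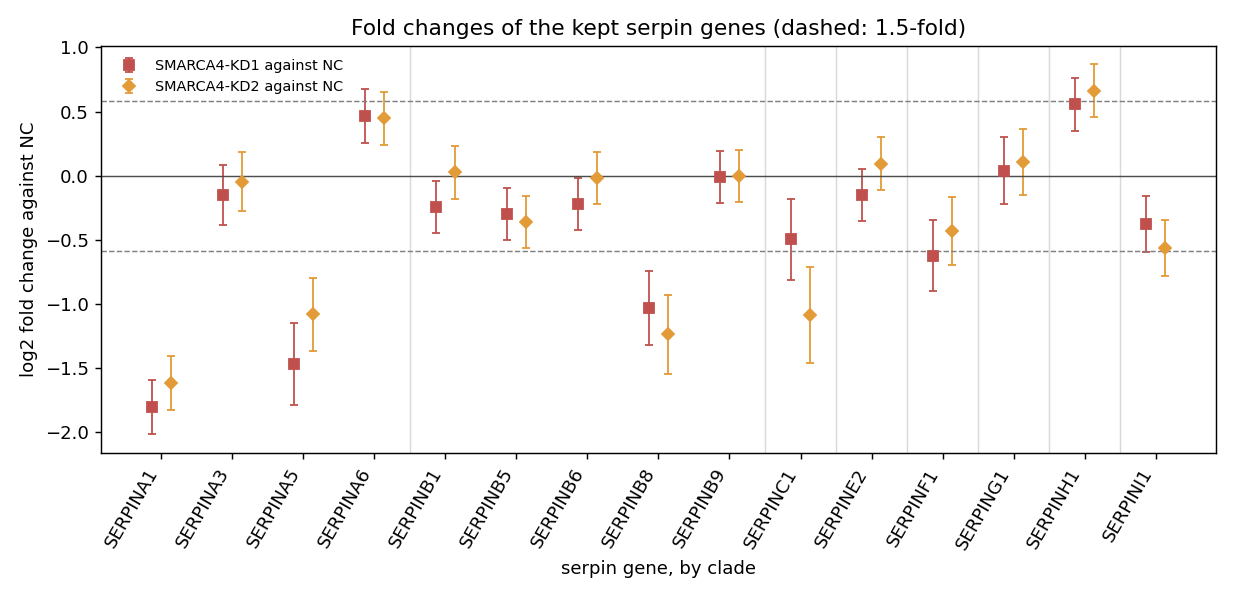
Log2 fold change against NC (vertical axis) of 15 of the 16 serpin genes kept (horizontal axis, by clade) in SMARCA4-KD1 and SMARCA4-KD2. Bars are the extraction errors of both arrays combined, dashed lines mark 1.5-fold, and each point rests on 1 array against the shared NC array. SERPINA1, SERPINA5 and SERPINB8 lie below the lower line in both knockdowns.

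Of the clade A genes 4 were kept. SERPINA1 encodes alpha-1-antitrypsin, the main plasma inhibitor of neutrophil elastase. Its intensity was 298 in NC and fell to 90.5 under SMARCA4-KD1 and 99.6 under SMARCA4-KD2. The transcript was 3.50-fold and 3.06-fold lower, with log2 fold changes of -1.81 and -1.62 (extraction error 0.21 in both). This was the lowest log2 fold change of the family in either knockdown, and SERPINA1 was past 1.5-fold in all 7 alternative settings run for single genes, nearest to NC with the normexp correction (-1.28 and -1.17). A second SERPINA1 probe was not well above background on any array.

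SERPINA5 encodes the protein C inhibitor, which acts on activated protein C and on urokinase. It was dim, with intensities of 21.6, 27.3 and 56.5. Its log2 fold change was -1.47 (extraction error 0.32) and -1.08 (extraction error 0.28). With the normexp correction these became -0.65 and -0.48, and the second was short of 1.5-fold. That correction was run with a constant added to each signal, which by arithmetic brings fold changes of dim probes nearer to NC.

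SERPINA6 encodes corticosteroid-binding globulin, a hormone carrier that inhibits no protease. Its intensity was 234, 223 and 160. Both knockdowns were above NC, by a log2 fold change of 0.47 and 0.45 (extraction error 0.21 in both), short of 1.5-fold. SERPINA3 encodes alpha-1-antichymotrypsin, an inhibitor of cathepsin G and chymase. Its brightest probe had an intensity of 62.0, 64.2 and 64.9, with log2 fold changes of -0.15 and -0.05 that were within the extraction error of 0.23. The 3 probes of SERPINA3 differed: another was well above background in NC only (22.7), at least 1.43-fold lower in each knockdown, and the third on no array. With the mean over probes the second log2 fold change was -0.28.

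**Figure D3:**
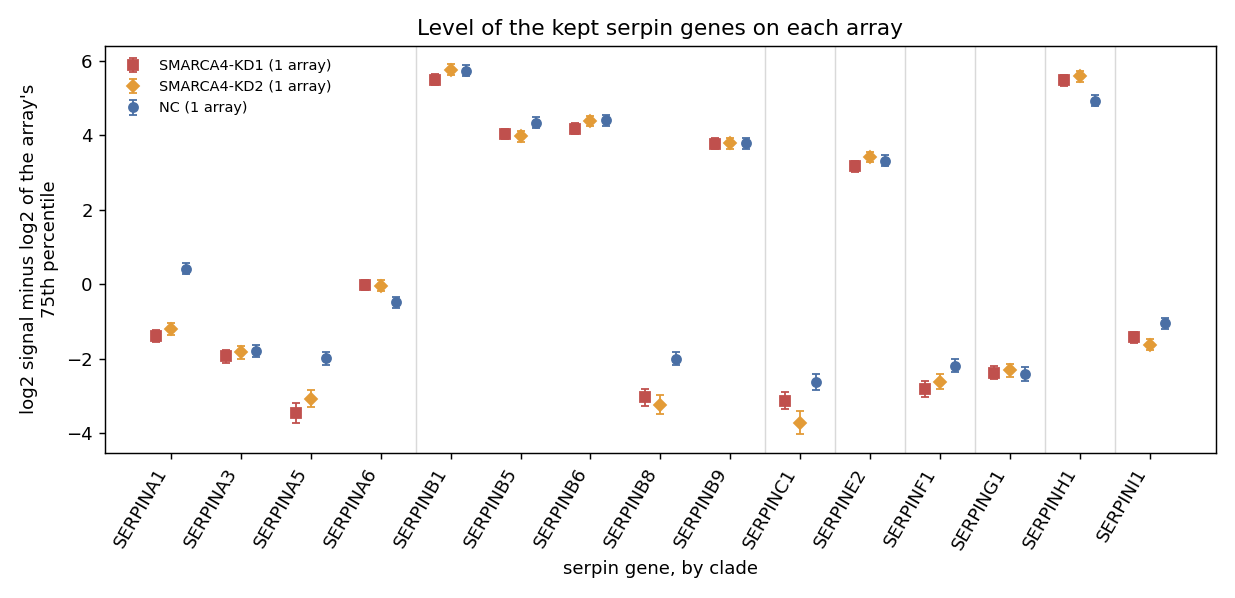
Level of 15 of the 16 serpin genes kept (horizontal axis, by clade) on the SMARCA4-KD1, SMARCA4-KD2 and NC arrays, as log2 signal minus log2 of the 75th percentile of the array (vertical axis). Points are single arrays and bars the extraction error. Heights can be compared between arrays for 1 gene, not between genes, since each gene has its own probe.

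Clade B serpins act mostly inside cells. SERPINB8, an inhibitor of furin, was the 1 clade B gene past 1.5-fold. It had intensities of 29.1, 24.3 and 56.0, lowest in SMARCA4-KD2. The log2 fold changes were -1.03 (extraction error 0.29) and -1.24 (extraction error 0.31), and with the normexp correction -0.38 and -0.44, short of 1.5-fold in both.

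The other 4 clade B genes kept were bright and lay nearer to NC. SERPINB1, an inhibitor of neutrophil elastase and cathepsin G, had an intensity of 10629, 12347 and 11869. Its log2 fold changes were -0.24 and 0.02, and 3 of 7 alternative settings turned the second, to as low as -0.09 with quantile normalization. SERPINB5 encodes maspin, which is not known to inhibit a protease by the serpin mechanism. It had an intensity of 3887, 3595 and 4509, and was below NC in both knockdowns by more than the extraction error of 0.20, with log2 fold changes of -0.30 and -0.36.

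SERPINB6, an inhibitor of cathepsin G and thrombin, was measured by a pair of probes, both well above background on all 3 arrays. Its brighter probe had log2 fold changes of -0.22 and -0.02, the second turned to 0.08 by the normexp correction, and its dimmer probe -0.25 and -0.10. SERPINB9, the granzyme B inhibitor that shields cells from cytotoxic lymphocytes, had an intensity of 3245, 3135 and 3075. Its log2 fold changes of -0.01 and -0.00 were within the extraction error of 0.20. In the main setting it was the kept gene of the family nearest to NC.

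In clade C, SERPINC1 encodes antithrombin, the heparin-dependent inhibitor of thrombin and factor Xa. It was the 1 serpin gene with repeated spots. Over its unflagged spots, the median intensity was 27.3 in SMARCA4-KD1 (10 spots, from 19.6 to 34.1), 17.3 in SMARCA4-KD2 (8 spots, from 13.6 to 20.8) and 36.4 in NC (10 spots, from 29.6 to 44.1). The spots of SMARCA4-KD2 and NC did not overlap, and 6 of the 8 in SMARCA4-KD2 were well above background. The log2 fold changes were -0.49 (extraction error 0.32) and -1.09 (extraction error 0.38), past 1.5-fold for SMARCA4-KD2 alone, and there -0.37 with the normexp correction. Spots of 1 array share their RNA and are not replicates of the condition.

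In clade E, SERPINE2 encodes protease nexin 1, an inhibitor of thrombin and plasminogen activators. It had an intensity of 2135, 2439 and 2234, and its log2 fold changes of -0.15 and 0.09 were within the extraction error of 0.20.

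In clade F, SERPINF1 encodes pigment epithelium-derived factor, a secreted protein that inhibits no protease and is known to restrain vessel growth. Its intensity was 33.8, 37.3 and 49.2. Its log2 fold change was -0.63 (extraction error 0.28) for SMARCA4-KD1, past 1.5-fold, and -0.43 (extraction error 0.27) for SMARCA4-KD2, short of it. With the normexp correction the first became -0.34, short of 1.5-fold. In clade I, SERPINI1 encodes neuroserpin, an inhibitor of tissue-type plasminogen activator. It had an intensity of 88.3, 74.5 and 108, with log2 fold changes of -0.38 and -0.57, the second just short of 1.5-fold (log2 0.58) and past it in 1 of 7 alternative settings, where it was -0.61.

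SERPING1, of clade G, encodes the C1 inhibitor of the complement and kallikrein systems. It had the most probes, 4, and they differed. The brightest on average had an intensity of 45.8, 46.2 and 42.0, with log2 fold changes of 0.04 and 0.11 within the extraction error of 0.26. Of 7 alternative settings 2 turned the first, to as low as -0.11 with the mean over probes, which gave 0.25 for the second. Another probe was well above background in both knockdowns (22.4 and 49.4) and not in NC, at least 1.19-fold and at least 2.73-fold higher. Of the remaining pair, 1 was well above background in NC only (24.2), at least 1.52-fold lower in each knockdown, and 1 in SMARCA4-KD2 only (18.8). The probes of SERPING1 therefore gave no common direction.

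**Figure D4:**
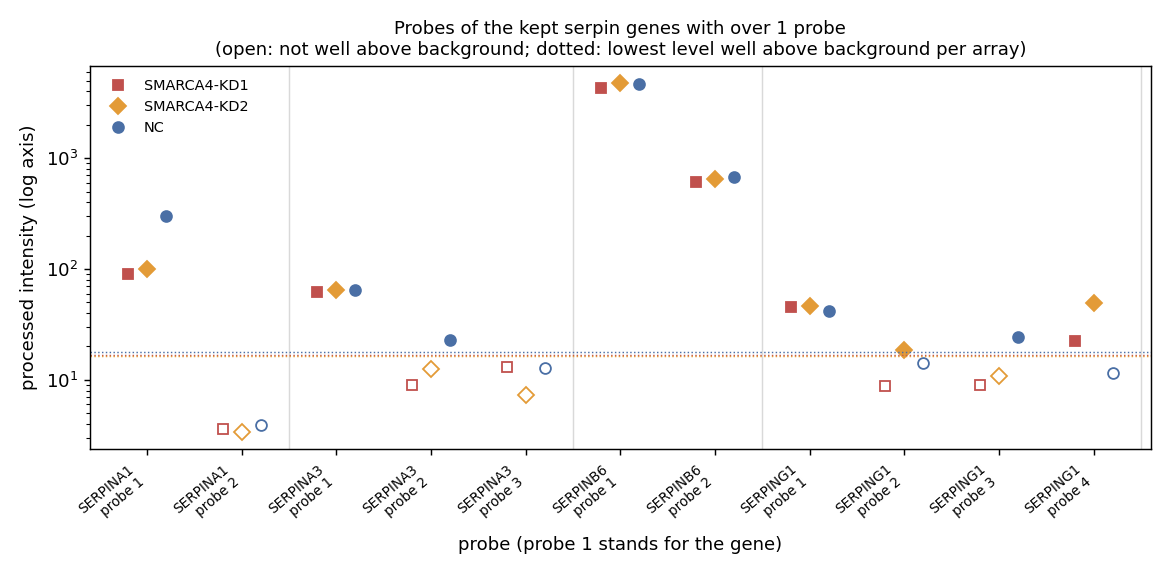
Processed intensity (vertical log axis) of each probe of the kept serpin genes with over 1 probe (horizontal axis) on the SMARCA4-KD1, SMARCA4-KD2 and NC arrays. Open symbols were not well above background, and dotted lines mark the lowest level well above background per array (16.9, 16.2 and 17.7). Heights can be compared between arrays for 1 probe, not between probes. The SERPING1 probes differ in direction.

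SERPINH1, the single gene of clade H, encodes HSP47, the collagen chaperone of the endoplasmic reticulum, which inhibits no protease. Intensities were 10566, 10976 and 6775, both knockdowns above NC. It was 1.47-fold and 1.58-fold higher, with log2 fold changes of 0.56 and 0.66 (extraction error 0.20 in both). SERPINH1 was the 1 serpin gene past 1.5-fold upwards, in SMARCA4-KD2, and that call was lost with quantile normalization (0.56). In SMARCA4-KD1 it was past 1.5-fold with the normexp correction alone (0.64).

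SMARCA4-KD1 and SMARCA4-KD2, on the same slide, were set against each other without the NC array. Of the 16 genes, 0 were at least 1.5-fold lower in SMARCA4-KD1 (3.55% of all genes) and 1 was higher (3.05% of all genes). That gene was SERPINC1, 1.51-fold higher (log2 0.59, extraction error 0.39), and it was short of 1.5-fold with the normexp correction, the percentile over detected probes and the series-level table. In the other direction the difference of SERPINA5 went furthest, with a log2 value of -0.39 (extraction error 0.36). Between the knockdowns, 12 of the 16 genes differed by less than their extraction error. The median difference of the 16 genes was -0.11, against -0.02 over all genes.

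Of the 35 serpin genes, 23 lie in 3 clusters on the genome, and the other 12 lie on 9 further chromosomes, with 1 or 2 on each. Positions are those of the probes in the array files (hg19). On chromosome 14, 10 clade A genes spanned 340 kb (chr14:94750192-95090389), of which 4 were kept: SERPINA1 and SERPINA5 were lower in both knockdowns, SERPINA3 lay near NC and SERPINA6 lay above it. Of 20 other genes within 500 kb, 11 were kept, with a median log2 fold change of -0.04 and -0.06. Of the 11, 0 were lower in both (8.05% of all genes) and 1 was higher in both (6.35% of all genes). The 1 higher gene was the deubiquitinase OTUB2 (0.87 and 0.82), named here after its values were seen.

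On chromosome 18, 10 clade B genes spanned 477 kb (chr18:61172218-61648978), of which SERPINB5 and SERPINB8 were kept. Of 11 other genes nearby, 6 were kept and 0 were past 1.5-fold in both knockdowns, with medians of -0.19 and -0.25. Over all genes, 8.05% were lower and 6.35% higher in both. On chromosome 6, SERPINB1, SERPINB6 and SERPINB9 spanned 122 kb (chr6:2833864-2955771), all were kept and 0 were past 1.5-fold in either knockdown. Of 38 other genes nearby, 22 were kept, with medians of 0.05 and 0.10, and 0 were higher and 1 was lower in both, a transcript listed as XLOC_l2_012847 (-0.89 and -0.62), also named after its values were seen. SERPINA7 on chromosome X was the 1 clade A gene outside the chromosome 14 cluster.

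Names that hold SERPIN without matching the rule were counted apart. There were 18, mainly long non-coding RNAs named after a neighbouring serpin gene, of which 6 were kept and 0 were past 1.5-fold in both knockdowns. Of all genes, 8.05% were lower and 6.35% higher in both. In SMARCA4-KD1 alone 2 were past it, both higher (11.2% of all genes were), named after their values were seen. The transcript lnc-SERPINB3-3 had intensities of 58.8, 3.40 and 3.91 and lnc-SERPINB8-3 of 30.8, 3.34 and 3.81, well above background in SMARCA4-KD1 only, with log2 fold changes against NC of at least 1.65 and at least 0.71 there. AGT, which encodes angiotensinogen and belongs to clade A under another name, was not well above background on any array.

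Promoter sequences of RefSeq (GRCh38.p14), from 250 bases before to 50 bases after each start, were found for 27 of the 35 genes (41 promoters) and for 12 of the 16 kept. SERPINC1, SERPINF1 and SERPING1 were among those with no entry. The median G+C content was 64.0% over the 18 promoters of kept genes, 43.7% over the 23 of genes not kept and 58.7% over all 34943 promoters of the table. Short motifs were searched on both strands. The GC box GGGCGG was found in 12 of the 41 serpin promoters (29.3%), in 11 of the 18 of kept genes (61.1%) and in 44.9% of all promoters. CCAAT was found in 10 of the 41 (24.4%), 5 of the 18 (27.8%) and 34.6% of all, and TATAAA in 11 (26.8%), 3 (16.7%) and 11.6%. TGANTCA, which covers AP-1 sites, was found in 9 of the 41 (22.0%), 2 of the 18 (11.1%) and 7.72% of all, and TTCNNGAA, the core of a heat shock element, in 4 (9.76%), 3 (16.7%) and 7.74%. N stands for any base, promoters of 1 gene can overlap, and a match is a description of the sequence alone. The 11 promoters of kept genes with a GC box belonged to 8 genes. Promoters of all genes kept on the array were not taken apart, so these shares do not set kept serpin genes apart from other detected genes.

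Promoters are shown for the genes lower in both knockdowns that had an entry and for SERPINH1, a choice made after their values were seen. They are SERPINA1 at its upstream start (chr14:94390586-94390885, minus strand) and its downstream start (chr14:94388553-94388852, minus strand), SERPINA5 (chr14:94581176-94581475, plus strand), SERPINB8 (chr18:63969831-63970130, plus strand) and SERPINH1 at its upstream start (chr11:75562003-75562302, plus strand) and its downstream start (chr11:75562223-75562522, plus strand). Capitals mark matches to the 5 motifs.
SERPINA1 upstream start: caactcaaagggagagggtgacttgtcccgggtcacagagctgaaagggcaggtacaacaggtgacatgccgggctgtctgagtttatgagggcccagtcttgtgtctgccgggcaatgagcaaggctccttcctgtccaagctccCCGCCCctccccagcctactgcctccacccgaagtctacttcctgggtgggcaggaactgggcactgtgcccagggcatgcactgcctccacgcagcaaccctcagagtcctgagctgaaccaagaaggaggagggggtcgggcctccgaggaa
SERPINA1 downstream start: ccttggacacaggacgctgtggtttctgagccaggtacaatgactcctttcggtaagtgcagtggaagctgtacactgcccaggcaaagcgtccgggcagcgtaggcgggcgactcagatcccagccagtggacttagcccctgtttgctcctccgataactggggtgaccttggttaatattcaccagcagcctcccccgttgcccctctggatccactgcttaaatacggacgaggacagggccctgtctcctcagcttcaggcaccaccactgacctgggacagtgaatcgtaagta
SERPINA5: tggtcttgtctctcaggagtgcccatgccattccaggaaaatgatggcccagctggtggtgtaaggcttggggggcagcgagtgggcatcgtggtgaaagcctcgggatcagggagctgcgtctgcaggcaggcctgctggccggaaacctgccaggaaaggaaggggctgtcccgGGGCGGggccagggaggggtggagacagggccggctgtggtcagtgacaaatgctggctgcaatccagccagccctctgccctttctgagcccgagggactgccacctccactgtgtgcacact
SERPINB8: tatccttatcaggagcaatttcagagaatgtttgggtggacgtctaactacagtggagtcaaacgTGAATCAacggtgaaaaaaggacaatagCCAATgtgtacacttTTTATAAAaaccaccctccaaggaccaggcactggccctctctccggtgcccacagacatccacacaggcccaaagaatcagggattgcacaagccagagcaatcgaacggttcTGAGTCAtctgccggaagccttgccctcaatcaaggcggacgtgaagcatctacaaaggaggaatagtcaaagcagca
SERPINH1 upstream start: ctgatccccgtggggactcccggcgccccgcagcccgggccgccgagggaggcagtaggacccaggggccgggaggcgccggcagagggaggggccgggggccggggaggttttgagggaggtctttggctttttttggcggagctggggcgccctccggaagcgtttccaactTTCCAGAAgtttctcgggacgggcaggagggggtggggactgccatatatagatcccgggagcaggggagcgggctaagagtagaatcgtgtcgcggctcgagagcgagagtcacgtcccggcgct
SERPINH1 downstream start: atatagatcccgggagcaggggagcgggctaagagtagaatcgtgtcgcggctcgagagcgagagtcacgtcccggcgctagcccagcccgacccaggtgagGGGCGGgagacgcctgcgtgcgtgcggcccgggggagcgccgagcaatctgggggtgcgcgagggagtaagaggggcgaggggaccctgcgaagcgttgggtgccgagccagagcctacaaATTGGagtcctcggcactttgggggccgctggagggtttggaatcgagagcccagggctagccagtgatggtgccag
In these windows the GC box stood upstream of the first SERPINA1 start and of SERPINA5, and the window of the second SERPINA1 start held no match. The SERPINB8 promoter held 2 matches to TGANTCA, 2 overlapping matches to TATAAA and 1 to CCAAT. The upstream SERPINH1 window held 1 match to TTCNNGAA, and the downstream window, which overlaps it, 1 to the GC box and 1 to CCAAT.

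Genes that work with serpins were described by lists, each set beside the same count over all genes (8.05% lower and 6.35% higher in both knockdowns). Of 44 proteases that serpins inhibit, 27 were kept, 5 were lower in both and 0 were higher. These were F10, coagulation factor X and a target of SERPINC1 (-1.76 and -1.48), the complement protease C1R, a target of SERPING1 (-1.38 and -1.29), PLAT (-1.27 and -1.34) and PLAU (-1.22 and -0.82), the plasminogen activators, and cathepsin K (CTSK), named after its values were seen. The median of the 27 was -0.15 in both knockdowns, and for SMARCA4-KD2 the gene at the median, KLK11, was at the floor of NC. Over the 24 well above background on all 3 arrays, a subset taken after this was seen, the medians were -0.19 and -0.16. With the normexp correction the fold changes of F10 and C1R moved by more than the extraction error and stayed past 1.5-fold, F10 (intensity 49.0, 57.6 and 157) to -0.997 and -0.880 and C1R to -1.12 and -1.05. Of 17 receptors and cofactors of serpins, 14 were kept, with medians of -0.23 and -0.30, and 3 were lower in both and 0 higher: SORL1 (-1.14 and -1.33), LRP1, the receptor that clears serpin-protease complexes (-0.83 and -0.79), and LRP8 (-0.77 and -0.74). LRP1 was dim (28.9, 28.5 and 48.2) and was short of 1.5-fold in both knockdowns with the normexp correction (-0.27 and -0.22) and with the mean over its probes (-0.36 and -0.25).

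Of 34 other protease inhibitors on the array, 21 were kept, with a median of -0.05 in both knockdowns, and 4 were lower in both and 0 higher. They were SPINK2 (-0.91 and -0.85), SPINT1, which inhibits the hepatocyte growth factor activator (-0.83 and -0.91), TIMP2 (-0.83 and -0.78) and SLPI, the secretory leukocyte protease inhibitor, which was not well above background in SMARCA4-KD1. SLPI was at least 2.51-fold lower there and 2.14-fold lower in SMARCA4-KD2, and short of 1.5-fold in both with the normexp correction (-0.40 and -0.34). The collagen-folding list set beside SERPINH1 held 17 genes on the array, general chaperones and a transcription factor among them. Of these, 16 were kept, with a median of 0.06 and 0.05, and 1 was higher in both, FKBP14 (1.55 and 1.32). The 3 lower in both were P3H2 (-1.23 and -1.12), PLOD2 (-1.09 and -1.02) and CRTAP (-1.02 and -0.73), which modify collagen prolines and lysines or assist in it. CRTAP was dim (18.1, 21.3 and 34.6) and short of 1.5-fold in both with the normexp correction (-0.35 and -0.27). SERPINH1 and the genes of its list thus differed in direction among themselves.

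Liver secretory genes and transcription factors that act at SERPINA1 numbered 39, of which 19 were kept, with medians of 0.22 and 0.07. For SMARCA4-KD1 the gene at the median, SAA2, was at the floor of NC. Over the 16 well above background on all 3 arrays, a subset also taken after this was seen, the medians were 0.25 and 0.13. Lower in both were 2, the acute-phase genes ORM1 (intensity 154, 103 and 290) and ORM2 (log2 fold changes of -1.21 and -1.58). With the normexp correction they were -0.73 and -1.10 for ORM1 and -0.86 and -1.03 for ORM2. Higher in both were 2, the transcription factors CEBPA (0.83 and 0.75) and STAT3 (0.89 and 0.67). HNF4A, a factor of SERPINA1 transcription in liver, was not well above background on any array.

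Of 24 epithelial and keratinocyte genes, known for company with clade B serpins in squamous epithelium, 14 were kept, with medians of -0.09 and -0.04, the first set in part by a gene at the array floors (SPRR3). The 11 well above background on all 3 arrays, taken in the same way, had medians of -0.17 and -0.05. The keratins KRT15 (-1.44 and -1.23) and KRT13 (-1.59 and -1.29) and the desmosomal cadherin DSC3 (-1.17 and -0.86) were lower in both, and SFN (0.59 and 0.63) was higher in both. With the normexp correction DSC3 was short of 1.5-fold in both (-0.55 and -0.42), and KRT13 was past it (-0.94 and -0.76). With the mean over probes DSC3 was -0.89 for SMARCA4-KD1. SFN was short of it for SMARCA4-KD2 with quantile normalization (0.54) and in both knockdowns with the percentile over detected probes (0.54 and 0.58).

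**Figure D5:**
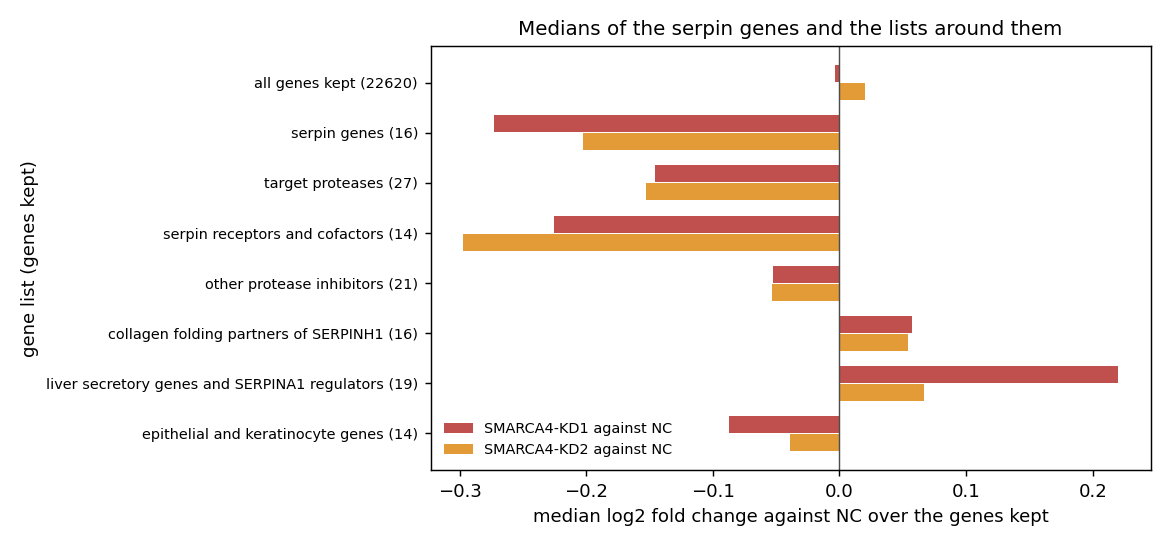
Median log2 fold change against NC (horizontal axis) of all genes kept, of the serpin genes and of 6 lists around them (vertical axis, with the number of genes kept), in SMARCA4-KD1 and SMARCA4-KD2. The serpin genes have medians of -0.27 and -0.20, and the receptors and cofactors -0.23 and -0.30. For the target proteases, liver genes and epithelial genes a bar can rest on a gene at the floor of an array.

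Markers of cell types were read on the same arrays, since the family holds genes typical of liver, skin and blood cells. Of 10 colon epithelium markers 8 were kept, with a summed intensity of 398092, 390259 and 369808 and KRT19 as the brightest probe. VIL1 and CDH17 were not well above background on any array. Summed intensities are not scaled between arrays, and the brightest probes weigh most in them. Brightness is that of a probe and does not compare the levels of different genes. KRT20 was not well above background in NC and was at least 2.15-fold and at least 2.81-fold higher in the knockdowns, and short of 1.5-fold in both with the normexp correction (0.35 and 0.46). A filter for probes well above background on all 3 arrays removes it. Of 7 hepatocyte markers 2 were kept, with a summed intensity of 124, 118 and 93.4 and APOA1 as the brightest. The other, AHSG, had intensities of 43.1, 50.2 and 27.8, past 1.5-fold higher for SMARCA4-KD2 alone (log2 0.82), and ALB, APOB and TTR were not well above background. Of 6 fibroblast markers 1 was kept, COL1A1, at 477, 387 and 348. Of 4 leukocyte markers on the array 3 were kept, among them PTPRC at 49.4, 37.0 and 46.3 and CD14 at 54.4, 45.8 and 53.2. Of 5 keratinocyte markers 2 were kept, KRT10 at 36650, 31941 and 26974, and KRT1 at 3.72, 35.5 and 4.17. KRT1 was well above background in SMARCA4-KD2 only, with a log2 fold change of at least 0.97 there. AHSG and KRT1 are named after their values were seen. The keratinocyte markers KRT5, KRT14 and IVL were not well above background. All arrays measured the cell line HCT116, so these are marker transcripts in that line. In its bulk RNA, fewer cells expressing a gene and less RNA per cell cannot be told apart. The part of these markers in the serpin values was not tested.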

How the data were processed

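Single-colour Agilent arrays of 3 samples, 1 per group, were used. Spot intensity in the deposited scanner files came from Agilent Feature Extraction (version 10.7.1.1, per the submitters' processing notes), with background subtraction within each array and no normalization between arrays. The deposited flags (background, saturation, outlier) were used as given. A deposited series-level table also held intensity, with column medians of 12.7, 13.0 and 12.1, which matched the scanner files' linear processed signal. Outlier spots were left out and repeated spots averaged as log2. The 75th percentile of each array (237, 228 and 223) was subtracted. Values not well above background were raised to the lowest value well above it (limits, "at least"). A filter kept each probe that was well above background somewhere (46.8%, 47.3% and 45.7% of probes were so on the 3 arrays), and the probe brightest on average stood for a gene. A call is a change of at least 1.5-fold, with no test. Errors of fold changes combine the extraction errors of both arrays. Members and lists (target proteases, receptors and cofactors, other inhibitors, collagen folding, liver and SERPINA1 regulators, epithelial genes, cell markers) were chosen with earlier results of these data known. A member counted in the totals and some list genes are not reported here. The naming rule took the other serpins and, per list, up to 4 genes per direction that were past 1.5-fold in both knockdowns. List genes were ranked by the smaller change. Some further list genes, cell markers and cluster neighbours are named outside this rule. Of 44 serpin probes, 41 had their accession in the RefSeq table, all 41 under the same symbol. Alternatives were quantile normalization, the percentile over detected probes, normexp (offset 50, limma 3.58.1, R 4.3.3), other filters, no floor, the mean over probes, the series-level table and a 2-fold threshold. The code that makes the calls was checked on simulated data. Changes were set there on brighter probes only, so the recovery of changes in dim probes was not checked. Python 3.11.15, numpy 2.4.6, pandas 2.3.3 and matplotlib 3.10.9 were used.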

Additional observations from a re-analysis of the deposited data

How the results depend on the processing

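Of 224 fold changes of the serpin genes recomputed under alternatives, 58 were identical to the main value, 32 of them without the floor and 26 with the mean over probes, and say nothing of stability. Of the 166 that differed, 11 moved by more than the extraction error, 10 of them with normexp, and 0 of the called values turned direction. For the other named genes 326 of 434 differed, 28 by more than that error. Of 240 list counts 214 were identical, 119 of them counts of 0, and 14 of the 26 that differed did so by more than 1.5 times. The serpin median ranged from -0.37 to -0.26 in SMARCA4-KD1 and from -0.32 to -0.16 in SMARCA4-KD2 over the alternatives other than no filter. Without a filter on dim probes it was -0.15 in each over 35 genes, which is the offset between the array floors and also the median of all genes there, a shift of -0.15 and -0.17 for all genes from the main setting. Without the floor 2 target proteases were higher in both knockdowns (0 in the main setting), and 2 epithelial genes (1), as with the series-level table. With normexp, counts of serpin genes lower than NC were 2 in SMARCA4-KD1 (5 in the main setting), 1 in SMARCA4-KD2 (5) and 1 in both (4), and counts higher were 1 in SMARCA4-KD1 (0) and 1 in both (0). The gene higher there was SERPINH1, a bright probe. Normexp and its offset of 50 were changed together, and the part of each was not tested. By arithmetic, a constant added to each signal brings fold changes nearer to NC, most for probes with signals near or below it. For such dim probes a call lost with normexp therefore does not show whether the change is stable. Calls over all genes, lower and higher, fell from 2775 and 2528 to 1357 and 1519 in SMARCA4-KD1, from 2209 and 2294 to 1013 and 1238 in SMARCA4-KD2, and from 1820 and 1436 to 859 and 902 in both. At 2-fold they were 823 and 772, 589 and 641, and 477 and 330, and serpin genes lower in SMARCA4-KD1 were 3. The count higher in SMARCA4-KD2, 1, was 0 with quantile normalization and at 2-fold. The count higher in SMARCA4-KD1 than in SMARCA4-KD2, 1, was 0 with the percentile over detected probes, normexp, the series-level table with either floor, and 2-fold. Apart from the threshold, how much of these changes came from a given step was not tested. The alternatives for lists and for the difference between knockdowns, and the floor of the scanner files for the series-level table, were chosen after seeing the data. With that table's own floor 3572 genes were lower in SMARCA4-KD1, and with the scanner files' floor 2824. SERPINA5, SERPINB8, SERPINC1 and SERPINF1 lay within a few times the lowest level well above background, which limits their fold changes. No paired analysis was possible because each group has 1 array.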
